A study of Mus musculus with 12 samples.

Results

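The Wnt pathway genes described here were every gene of the table whose symbol starts with Wnt plus a digit, Fzd, Dvl, Axin, Sfrp, Dkk, Tcf7, Nkd plus a digit, Rspo, Lgr or Tle plus a digit, together with Lef1, Lrp5, Lrp6, Ctnnb1, Apc, Apc2, Gsk3a, Gsk3b, Ror1, Ror2, Ryk and Wif1. This rule used names and no measured value, and it found 40 members among 11358 genes with a probe set of a single symbol. Lef1, Lrp5, Ror1 and Wif1 had no such probe set in the table analysed here. Each member was read from the probe set with the highest mean over the 12 arrays, and 27 members were bright enough to be tested, among 8787 genes tested in all.

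Fluorescent cells migrating in the mouse embryonic cortex were sorted by FACS, and their amplified RNA was hybridised to Affymetrix Mouse430_2 arrays with 3 arrays in each group. The groups were MGE cells at E18.5, MGE cells at E14.5, CGE cells at E18.5 and CGE cells at E16.5. MGE cells, from the medial ganglionic eminence, came from Nkx2-1-Cre;R26R-YFP embryos, in which Cre under Nkx2-1 control turns on YFP permanently. CGE cells came from Nkx2-1-Cre;Dlx1-lox-Venus-lox embryos, in which Dlx1 drives Venus and the same Cre removes it, so the gate is open to cells of the lateral eminence as well, which the series title names. All 4 groups thus carried the Nkx2-1-Cre transgene, and the reporter, the driver and the mouse line differed between MGE and CGE cells. The early comparison, MGE at E14.5 against CGE at E16.5, also differs in embryonic day, so origin, reporter and day cannot be told apart there. At E18.5, on the same day, origin still cannot be told apart from reporter, driver and line. Embryos were pooled, in numbers that the sources used here do not give. The sample titles call the arrays biological replicates.

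The labels held on the lineage markers. All 7 tested MGE markers were higher in MGE cells in the early comparison and 5 of 7 at E18.5, and all 7 tested CGE markers were lower in MGE cells in both. Replicate arrays correlated at 0.972 to 0.995 (Pearson's r across probe sets). The MGE arrays at E18.5 stood apart in their markers of oligodendrocyte precursors, the cells that later make myelin: the mean log2 level of 13 such markers was 10.44 to 10.96 in MGE cells at E18.5 and 7.01 to 7.14 in MGE cells at E14.5, against 6.04 to 6.35 in CGE cells at E18.5 and 5.93 to 6.12 in CGE cells at E16.5. Of 12 such markers tested, 11 were higher in MGE than in CGE cells at E18.5 and 11 were higher in MGE cells at E18.5 than at E14.5, with none lower. Markers shared by GABAergic interneurons were lower there: 6 of 7 tested were lower in MGE cells at E18.5 than at E14.5 (median difference -0.63) and 5 of 7 were lower in MGE than in CGE cells at E18.5 (median -0.75), with none higher. Microglial markers, 3 of them tested, were higher at E18.5 in both lineages. In these bulk samples, fewer cells of a type and less RNA per cell cannot be told apart.

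Wnt proteins are secreted, lipid-modified signals that bind Frizzled receptors and, for the branch that runs through beta-catenin, the co-receptors Lrp5 and Lrp6. Without a Wnt, a destruction complex of Axin, Apc and Gsk3 marks beta-catenin for degradation. With one, Dishevelled proteins disable that complex, and beta-catenin enters the nucleus and replaces Groucho co-repressors on the TCF/LEF factors. Other branches act on the cytoskeleton and on calcium. In the developing forebrain the pathway is known for patterning the telencephalon, for keeping progenitors dividing and, in the oligodendrocyte lineage, for timing differentiation through Tcf7l2.

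TCF/LEF factors bind the core motif CTTTGA. Upstream windows are shown for Fzd1 and Gsk3a, the 2 called members in which it was found, and for Tcf7l2. Sequences are from RefSeq on GRCm38.p6, written 5′ to 3′ in the direction of the gene, with the motif in capitals, here read on the opposite strand as TCAAAG. The Fzd1 match began 242 bases before the gene's start, in chr5:4758423-4758466 on the minus strand, and the Gsk3a match 157 bases before it, in chr7:25237973-25238038 on the minus strand. The 250 bases before Tcf7l2, chr19:55741560-55741809 on the plus strand, held no match. Neither did those before another start of that gene, chr19:55895071-55895320, which are not shown.
Fzd1: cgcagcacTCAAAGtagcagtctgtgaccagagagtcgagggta
Gsk3a: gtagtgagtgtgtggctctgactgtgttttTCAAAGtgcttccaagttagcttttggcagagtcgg
Tcf7l2: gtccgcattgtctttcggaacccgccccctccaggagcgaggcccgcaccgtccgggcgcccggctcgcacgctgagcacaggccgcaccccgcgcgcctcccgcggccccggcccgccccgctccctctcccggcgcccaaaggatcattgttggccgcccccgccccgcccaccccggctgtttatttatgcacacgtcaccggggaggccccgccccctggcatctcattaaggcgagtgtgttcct
Promoters were matched for 8 of the 14 members called in a comparison, and 2 of these 8 (25.0%) held the motif on either strand within 250 bases. It was found in 5 of 30 matched members (16.7%), against 4280 of 27025 genes of the promoter table (15.8%), so its share in the members was near that of all genes.

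Of the 27 tested members, 14 passed the test (limma, Benjamini-Hochberg adjusted p under 0.05 over all 8787 genes) in at least 1 of 4 comparisons, and 13 passed it in none. In the early comparison 0 members were higher in MGE cells, where 4.15% of all tested genes were, and 4 were lower (Wnt5a, Fzd1, Fzd2, Dkk3), where 5.88% were. At E18.5 5 members were higher in MGE than in CGE cells (Tcf7l2, Lrp6, Sfrp2, Apc, Wnt7a) against a background of 13.0%, and 4 were lower (Wnt5a, Fzd2, Tle1, Dvl1) against 9.81%. In MGE cells, E18.5 against E14.5, 4 were higher (Tcf7l2, Dkk3, Sfrp2, Lrp6) against 11.4% of all genes, and 4 were lower (Tle1, Fzd1, Apc2, Wnt7a) against 9.76%. In CGE cells, E18.5 against E16.5, 3 were higher (Tle1, Dkk3, Sfrp1) against 4.47%, and 5 were lower (Fzd1, Wnt5a, Apc2, Wnt7a, Gsk3a) against 6.35%. In either direction 14.8% of the tested members were called in the early comparison, where 10.0% of all genes were, 33.3% at E18.5, where 22.8% were, 29.6% in MGE cells over time, where 21.2% were, and 29.6% in CGE cells over time, where 10.8% were. The member shares at E18.5 and in MGE cells include Tcf7l2, which entered the test only through the group where it was high. The median size of a difference, whatever its sign, was 0.29 for members against 0.19 for all genes in the early comparison, 0.46 against 0.25 at E18.5, 0.33 against 0.25 in MGE cells over time and 0.31 against 0.21 in CGE cells over time. The comparisons share arrays: each group enters 2 of them. Several calls relied on the spread shared over all 12 arrays. With only the arrays of the comparison fitted, Wnt5a, Tle1, Gsk3a, Dkk3 and Sfrp1 missed the threshold in CGE cells over time (adjusted p = 0.0612 to 0.113), and Apc, Dvl1 and Sfrp2 did so at E18.5 (adjusted p = 0.0637 to 0.0768).

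**Figure D1:**
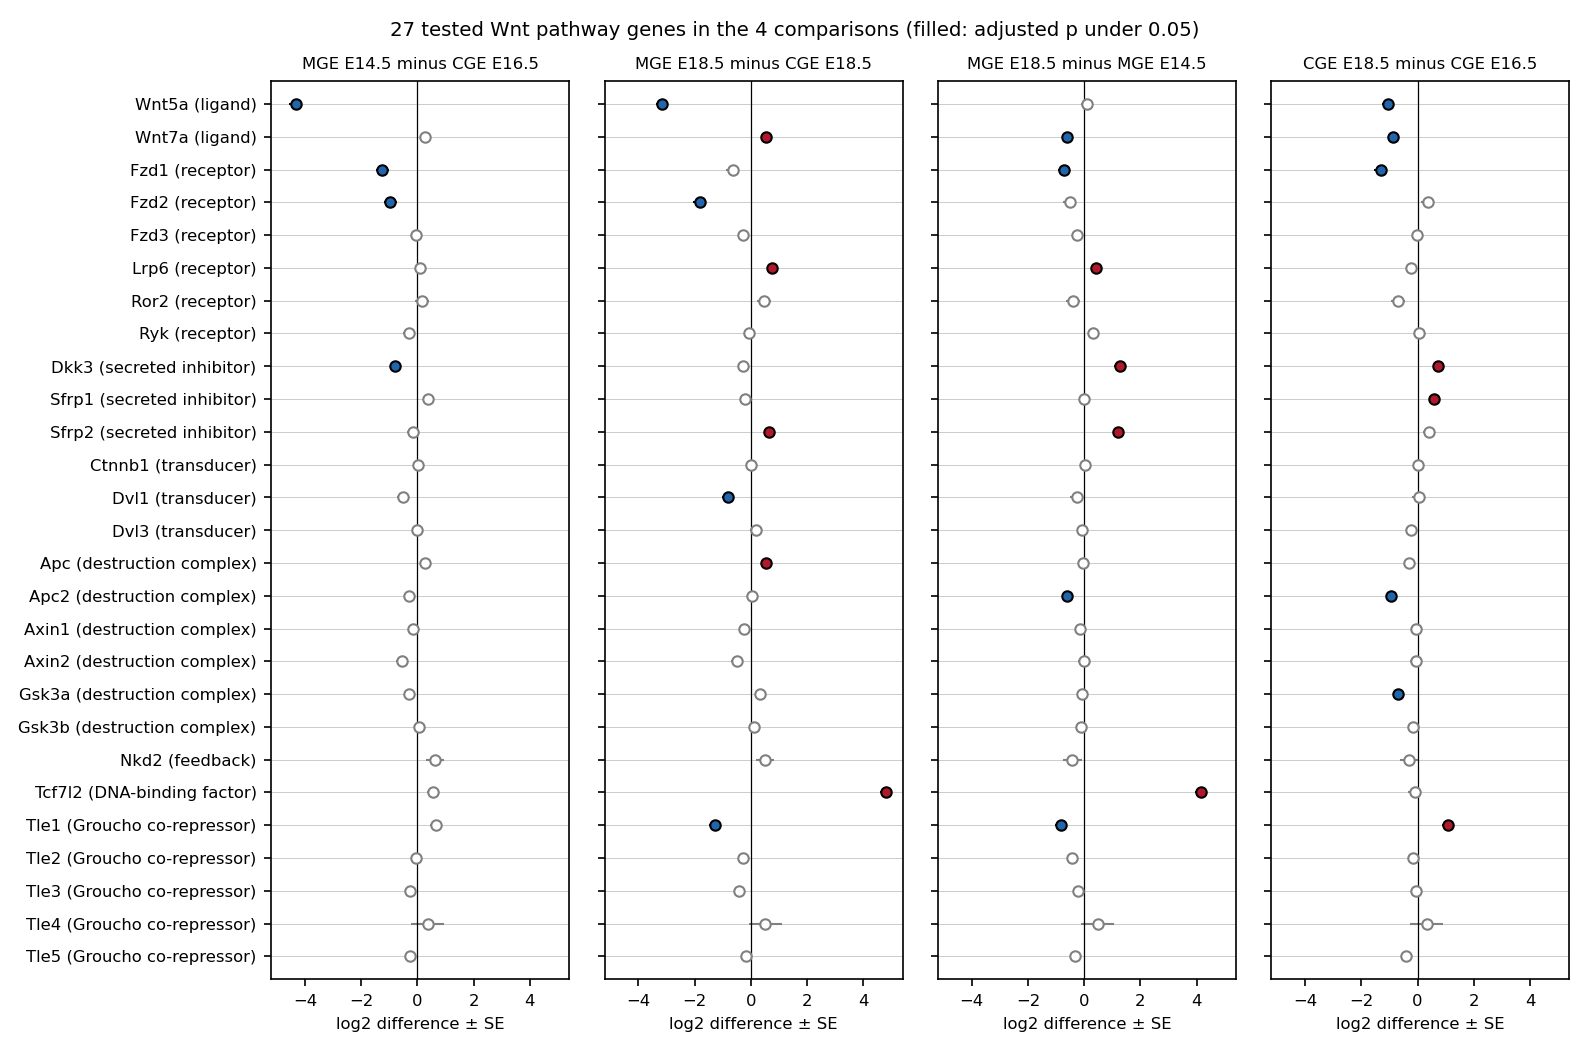
Log2 difference ± SE of each of the 27 tested Wnt pathway genes (x axis) in the 4 comparisons (panels), with filled points for an adjusted p under 0.05 and genes down the y axis by role. The points farthest from 0 are Wnt5a, at -4.34 in the early comparison and -3.17 at E18.5, and Tcf7l2, at 4.81 at E18.5 and 4.16 in MGE cells over time, measured against groups that lay below the filter level.

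Among the ligands, Wnt5a separated the lineages at both ages. Wnt5a acts mainly through the branches that do not need beta-catenin and guides cell movement and axon growth. On the log2 scale it had levels of 7.71, 7.34 and 7.18 in MGE cells at E18.5 and 7.36, 7.03 and 7.51 in MGE cells at E14.5, against 10.81, 10.06 and 10.87 in CGE cells at E18.5 and 11.52, 11.64 and 11.75 in CGE cells at E16.5. Every CGE array lay far above every MGE array, and the lowest MGE values were about at the level of the filter on dim genes, 7.10 to 7.17. The difference, MGE minus CGE, was -4.34 ± 0.22 (SE) in the early comparison, a 20.2-fold lower level (adjusted p = 1.88e-07), and -3.17 ± 0.22 at E18.5, 9.00-fold lower (adjusted p = 8.92e-07). The other 3 probe sets of Wnt5a gave -4.68, -4.54 and -3.76 in the early comparison and -3.56, -2.76 and -3.09 at E18.5. Their MGE means, at 3.79 to 6.70, lay under the filter level, so the sizes of these differences rest on dim values on the MGE side.

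Wnt5a also fell with age in CGE cells. The difference, E18.5 minus E16.5, was -1.06 ± 0.22 (adjusted p = 0.0126), and all 3 arrays at E18.5 lay below all 3 at E16.5. This call was lost without CGE E16.5 replicate 3 (adjusted p = 0.0516). In MGE cells the change was 0.11 ± 0.22 (95% interval -0.37 to 0.59, adjusted p = 0.764), with the arrays of the 2 ages overlapping. The lineage difference thus changed by 1.17 ± 0.31 between the early comparison and E18.5 (adjusted p = 0.0371). In that test of the change 3 members were called higher (Tcf7l2, Wnt5a, Lrp6), against 6.69% of all genes. The call of the Wnt5a change was lost in 6 of the 12 fits that left out 1 array, namely without MGE E18.5 replicate 1 or 2, MGE E14.5 replicate 1 or 2, or CGE E16.5 replicate 2 or 3, with adjusted p up to 0.101.

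Wnt7a, a ligand that works through beta-catenin in neural progenitors and brain vessels, was lower at E18.5 in both lineages. Its log2 levels were 9.95, 9.69 and 9.89 in MGE cells at E18.5 and 10.43, 10.38 and 10.53 in MGE cells at E14.5, against 9.31, 9.23 and 9.37 in CGE cells at E18.5 and 10.14, 10.10 and 10.32 in CGE cells at E16.5. The ages did not overlap within either lineage, and the lineages did not overlap at either age. The difference with age was -0.60 ± 0.11 in MGE cells (adjusted p = 0.0027) and -0.88 ± 0.11 in CGE cells (adjusted p = 0.00169). MGE cells were higher than CGE cells at E18.5 by 0.54 ± 0.11 (adjusted p = 0.00409). The early difference of 0.26 ± 0.11 did not pass the test (adjusted p = 0.182), although the arrays did not overlap.

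The remaining ligands stayed below the level needed for testing. Wnt4 lay between 4.68 and 5.23 on all 12 arrays. Wnt5b, the close relative of Wnt5a, had 4.56, 4.64 and 4.16 in MGE cells at E18.5 against 6.59, 5.59 and 5.76 in CGE cells at E18.5, so it stood higher in CGE cells there without overlap. With no filter its difference was -1.53 ± 0.28 (adjusted p = 0.00201).

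Among the receptors, Fzd1 and Fzd2 were lower in MGE cells. Frizzled proteins are the membrane receptors that Wnts bind. Fzd2 had log2 levels of 8.19, 8.26 and 8.43 in MGE cells at E18.5 and 8.76, 9.00 and 8.65 in MGE cells at E14.5, against 9.82, 10.00 and 10.54 in CGE cells at E18.5 and 10.27, 9.34 and 9.67 in CGE cells at E16.5. All CGE arrays lay above all MGE arrays. The difference was -1.82 ± 0.23 at E18.5, 3.54-fold lower in MGE cells (adjusted p = 0.000145), and -0.96 ± 0.23 in the early comparison (adjusted p = 0.0218). The early call was lost without MGE E14.5 replicate 1 (adjusted p = 0.0788), MGE E14.5 replicate 3 (0.0778) or CGE E16.5 replicate 1 (0.0705). A second, dimmer probe set gave -1.07 at E18.5 and -0.90 early.

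Fzd1 was lower at E18.5 than before it in both lineages. On the log2 scale it had levels of 7.65, 7.28 and 8.16 in MGE cells at E18.5 and 8.37, 8.45 and 8.41 in MGE cells at E14.5, against 8.17, 8.05 and 8.80 in CGE cells at E18.5 and 9.82, 9.67 and 9.47 in CGE cells at E16.5. The CGE arrays at E16.5 were the highest 3, and the 2 lineages overlapped only at E18.5. MGE cells were lower in the early comparison, with a difference of -1.24 ± 0.23 (adjusted p = 0.00439), and at E18.5 the difference of -0.65 ± 0.23 did not pass the test (adjusted p = 0.0634). In CGE cells Fzd1 was lower at E18.5 than at E16.5, by a difference of -1.31 ± 0.23 (adjusted p = 0.00713). In MGE cells the difference between E18.5 and E14.5 was -0.72 ± 0.23 (adjusted p = 0.045), a call close to the threshold. It was lost in 9 of the 12 fits that left out 1 array, all except those without MGE E18.5 replicate 3, CGE E18.5 replicate 2 or CGE E18.5 replicate 3, and the adjusted p without MGE E18.5 replicate 2 was 0.156.

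Lrp6, the co-receptor that carries the Wnt signal towards beta-catenin, was higher in MGE cells at E18.5. Its log2 levels were 11.01, 11.00 and 10.89 in MGE cells at E18.5 and 10.46, 10.41 and 10.75 in MGE cells at E14.5, against 10.08, 10.40 and 10.15 in CGE cells at E18.5 and 10.43, 10.35 and 10.52 in CGE cells at E16.5. The 3 MGE arrays at E18.5 were the highest of the 12, and the other 9 lay between 10.08 and 10.75. MGE cells exceeded CGE cells at E18.5 by 0.75 ± 0.13 (adjusted p = 0.00113), against 0.11 ± 0.13 in the early comparison (adjusted p = 0.683). Within MGE cells the level was higher at E18.5 than at E14.5 by 0.42 ± 0.13 (adjusted p = 0.0349), a call lost with the replicate block (adjusted p = 0.0561) and without any 1 of the 3 MGE E18.5 arrays, MGE E14.5 replicate 1 or MGE E14.5 replicate 2, with adjusted p up to 0.137. The change of the lineage difference was 0.65 ± 0.18 (adjusted p = 0.046). It missed the threshold in 16 of 22 alternatives, including quantile normalization (0.0506), the replicate block (0.0731) and every fit that left out 1 array except those without MGE E14.5 replicate 3 or CGE E18.5 replicate 2. The second Lrp6 probe set did not share the pattern, with differences of 0.07 at E18.5 and 0.18 in MGE cells over time.

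The other tested receptors were called in no comparison. Fzd3, which acts in axon growth and planar cell polarity, had group means of 10.91 in MGE cells at E18.5 and 11.15 in MGE cells at E14.5, against 11.17 in CGE cells at E18.5 and 11.19 in CGE cells at E16.5. Ryk, a Wnt receptor of the tyrosine kinase family, had group means between 8.47 and 8.84. Ror2, the receptor kinase through which Wnt5a acts in many tissues, had 7.31, 7.97 and 7.32 in MGE cells at E18.5 and 7.95, 7.82 and 8.03 in MGE cells at E14.5, against 7.28, 6.66 and 7.26 in CGE cells at E18.5 and 7.59, 7.45 and 8.23 in CGE cells at E16.5. Its CGE arrays at E18.5 lay below those at E16.5, but the difference of -0.69 ± 0.24 (95% interval -1.22 to -0.16) did not pass the test (adjusted p = 0.095). Fzd4, Fzd5, Fzd7, Fzd8 and Fzd9 were too dim for testing, with values between 3.89 and 6.81. Among them Fzd5 stood highest in MGE cells at E18.5, at 5.48, 5.82 and 5.57, and its highest value on the other 9 arrays was 5.09. Fzd7 reached 6.81 on 1 CGE array at E18.5 and 4.15 on another of that group.

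Among the secreted inhibitors, Dkk3 and Sfrp2 were higher at E18.5 than at E14.5 in MGE cells. Sfrp proteins carry a Frizzled-like domain and bind Wnts outside the cell. Sfrp2 had log2 levels of 11.62, 11.53 and 11.29 in MGE cells at E18.5 and 10.47, 10.02 and 10.30 in MGE cells at E14.5, against 10.96, 10.35 and 11.13 in CGE cells at E18.5 and 10.45, 10.54 and 10.26 in CGE cells at E16.5. The MGE arrays at E18.5 were the highest 3 of all. The change in MGE cells was 1.22 ± 0.20 (adjusted p = 0.000997), and in CGE cells it was 0.40 ± 0.20 (adjusted p = 0.223), a difference between lineages of 0.82 ± 0.28 that did not pass the test (adjusted p = 0.0943). At E18.5 MGE cells exceeded CGE cells by 0.67 ± 0.20 (adjusted p = 0.029). That call was lost without MGE E18.5 replicate 1 (adjusted p = 0.0973), MGE E18.5 replicate 2 (0.0769) or CGE E18.5 replicate 2 (0.0852), where the difference in the last case was 0.44. Markers of radial glia and astrocytes moved in the same comparison: 7 of 10 tested were higher in MGE cells at E18.5 than at E14.5, and 5 were higher and 1 lower in MGE than in CGE cells at E18.5. Their part in the Sfrp2 values was not tested.

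Dkk3, a member of the Dickkopf family whose action on Wnt signalling depends on the tissue, was higher at E18.5 in both lineages. On the log2 scale it had levels of 7.22, 7.56 and 7.80 in MGE cells at E18.5 and 6.21, 6.32 and 6.27 in MGE cells at E14.5, against 7.62, 7.85 and 7.92 in CGE cells at E18.5 and 6.75, 7.49 and 6.96 in CGE cells at E16.5. The ages did not overlap in either lineage, and the MGE arrays at E14.5 were the lowest 3. It was above the filter level on 7 arrays, which include all 6 at E18.5, so it entered the test mainly through the later age. The MGE arrays at E14.5 lay under that level, as did CGE replicates 1 and 3 at E16.5. The sizes of its differences thus rest on dim values on the earlier side. None of its calls was lost in the fit with no filter. The change was 1.26 ± 0.19 in MGE cells (adjusted p = 0.000714) and 0.73 ± 0.19 in CGE cells (adjusted p = 0.033). Early MGE cells were lower than early CGE cells, with a difference of -0.80 ± 0.19 (adjusted p = 0.021), while at E18.5 the difference was -0.27 ± 0.19 (adjusted p = 0.35). The call in CGE cells was lost without MGE E14.5 replicate 1 or 2, CGE E18.5 replicate 2 or 3, or CGE E16.5 replicate 1 or 3, with adjusted p up to 0.108, and the early call without any 1 of the 3 MGE E14.5 arrays or CGE E16.5 replicate 2, with adjusted p up to 0.0807. A dimmer second probe set gave 1.21 in MGE cells and -0.03 in CGE cells over time.

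Sfrp1 had log2 levels of 9.77, 9.58 and 9.44 in MGE cells at E18.5 and 9.45, 9.59 and 9.72 in MGE cells at E14.5, against 9.62, 9.98 and 9.84 in CGE cells at E18.5 and 9.01, 9.33 and 9.30 in CGE cells at E16.5. The CGE arrays at E16.5 were the lowest 3. In CGE cells it was higher at E18.5 than at E16.5 by 0.60 ± 0.14 (adjusted p = 0.0215), against 0.01 ± 0.14 in MGE cells (adjusted p = 0.968). Other bright probe sets gave 0.61 and 0.57 in CGE cells, but the one that varied most gave -0.13, so the direction turned with the probe set. The call was lost without CGE E18.5 replicate 2 (adjusted p = 0.0764), CGE E16.5 replicate 1 (0.0634) or CGE E16.5 replicate 3 (0.0522). Dkk1, which blocks Lrp6, was near the floor of the arrays at 3.90 to 4.77. Lgr4, a receptor for the R-spondins that strengthen Wnt signalling, lay between 6.21 and 7.45 and was too dim for testing.

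On their brightest probe sets, 3 genes of the cytoplasmic core of the pathway varied little. Ctnnb1, which encodes beta-catenin, lay between 13.16 and 13.32 on all 12 arrays. Its differences in the 4 comparisons were 0.02 to 0.04, each ± 0.09, and the 95% intervals ran no further than -0.18 to 0.24. Gsk3b, the kinase of the destruction complex, lay between 12.32 and 12.69, with differences of -0.16 to 0.11, each ± 0.10. Axin1, the scaffold of that complex, had group means of 8.16 to 8.45. None of these 3 genes was called, and the 95% intervals of Axin1 reached from -0.53 to 0.24. Some other probe sets gave larger differences. Those of Ctnnb1 gave 0.36 and 0.23 in MGE cells over time. Another Gsk3b probe set, above the filter level on all 12 arrays, gave 0.38 in the early comparison, 0.46 at E18.5, -0.41 in MGE cells and -0.49 in CGE cells over time, and a dimmer one gave -0.68 at E18.5 and -1.09 in MGE cells over time. The remaining probe sets of Gsk3b that were above it on all 12 arrays gave -0.17 to 0.21. The other Axin1 probe set gave -0.40 in MGE cells over time.

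Axin2, both a part of the destruction complex and a classic target of beta-catenin signalling, leaned towards CGE cells. Its log2 levels were 8.18, 8.26 and 8.65 in MGE cells at E18.5 and 8.17, 8.30 and 8.61 in MGE cells at E14.5, against 8.97, 9.05 and 8.58 in CGE cells at E18.5 and 8.77, 9.36 and 8.60 in CGE cells at E16.5. The lineages overlapped by 1 array on each side at both ages. The differences of -0.55 ± 0.21 in the early comparison (adjusted p = 0.143) and -0.50 ± 0.21 at E18.5 (adjusted p = 0.113) did not pass the test, and the levels hardly moved with age, by 0.00 ± 0.21 in MGE cells and -0.04 ± 0.21 in CGE cells.

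Apc, the scaffold whose loss frees beta-catenin in colon tumours, was higher in MGE than in CGE cells at E18.5 by 0.55 ± 0.14 (adjusted p = 0.0141). Its levels were 12.40, 12.28 and 12.19 in MGE cells at E18.5, against 11.71, 11.48 and 12.05 in CGE cells at E18.5, without overlap, and the other 3 Apc probe sets gave 0.63, 0.63 and 0.68. The call was lost without MGE E18.5 replicate 1 (adjusted p = 0.0575). Apc2, its relative found mainly in neurons, was lower at E18.5 in both lineages. It had 8.62, 9.11 and 8.70 in MGE cells at E18.5 against 9.36, 9.25 and 9.62 in MGE cells at E14.5, and 8.73, 8.79 and 8.73 in CGE cells at E18.5 against 9.85, 9.35 and 9.90 in CGE cells at E16.5. Neither pair overlapped. The difference was -0.95 ± 0.17 in CGE cells (adjusted p = 0.00799) and -0.60 ± 0.17 in MGE cells (adjusted p = 0.0297), where the call was lost without MGE E18.5 replicate 1 or 3, or MGE E14.5 replicate 1 or 3, with adjusted p up to 0.11. Gsk3a, the second Gsk3 kinase, had 8.23, 8.10 and 7.65 in CGE cells at E18.5, against 8.98, 8.57 and 8.57 in CGE cells at E16.5, a difference of -0.71 ± 0.16 (adjusted p = 0.0172) without overlap. In MGE cells its change was -0.07 ± 0.16 (adjusted p = 0.788).

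Dishevelled proteins pass the signal from Frizzled to the destruction complex. Dvl1 was lower in MGE than in CGE cells at E18.5, at a difference of -0.80 ± 0.22 (adjusted p = 0.0202), and MGE arrays at 10.93, 10.75 and 11.03 stood against CGE arrays at 11.21, 11.68 and 12.23. The groups did not overlap, but the call was lost without MGE E18.5 replicate 1 (adjusted p = 0.0525), MGE E18.5 replicate 2 (0.069) or CGE E18.5 replicate 3 (0.0568), and the second, dimmer probe set gave -0.05. Dvl3 was called nowhere, with group means between 9.23 and 9.46. Dvl2 lay between 5.93 and 6.85, below the level tested. The feedback inhibitor Nkd2, which binds Dishevelled, had group means of 6.83 in MGE cells at E18.5 and 7.24 in MGE cells at E14.5, against 6.33 in CGE cells at E18.5 and 6.62 in CGE cells at E16.5, with no call. Its relative Nkd1 was too dim for testing, at 4.88 to 5.95.

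**Figure D2:**
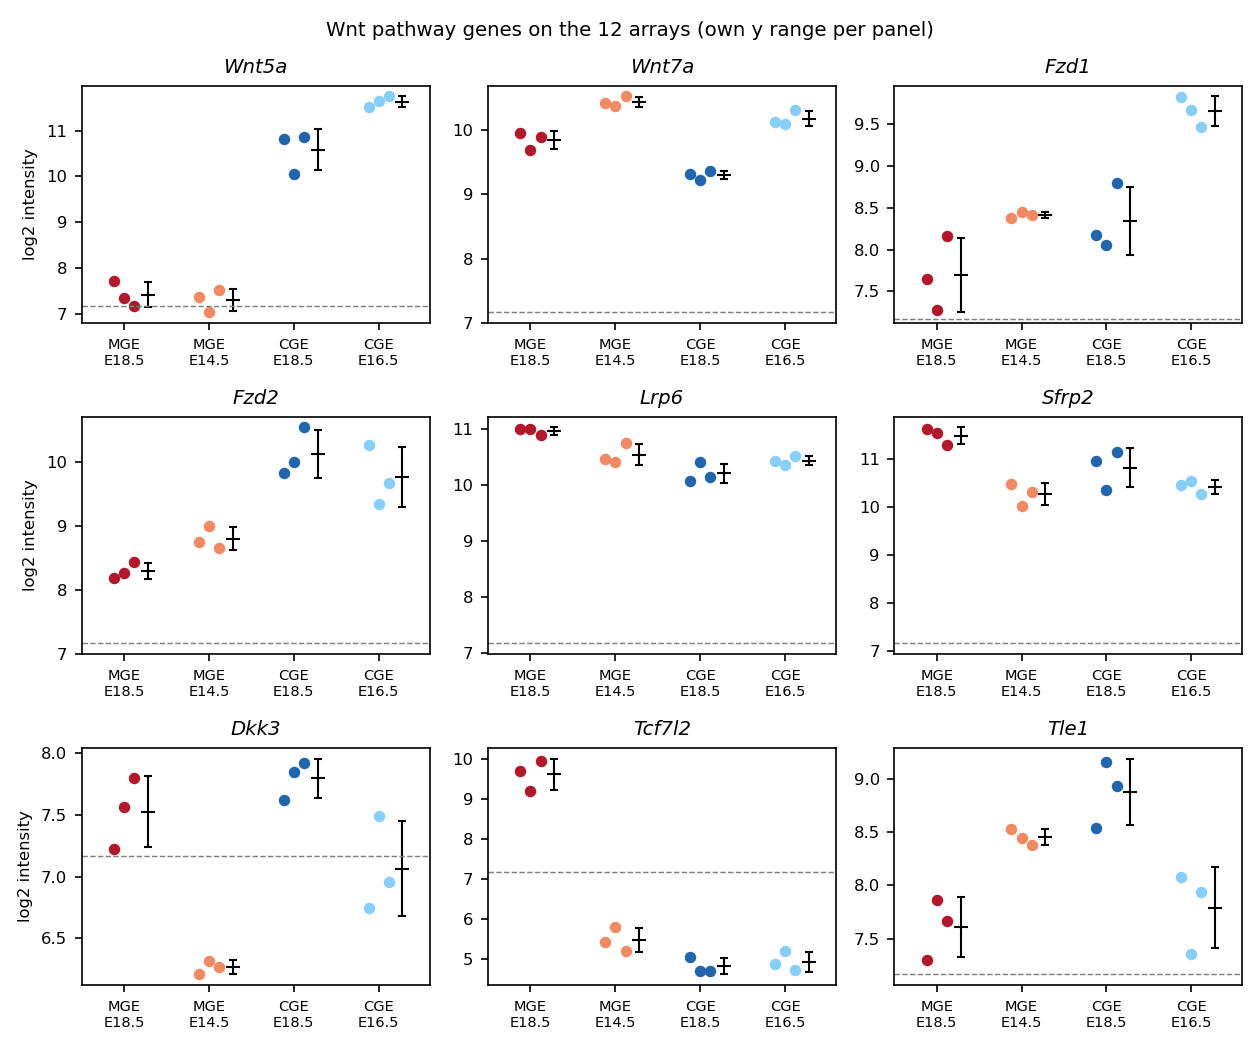
Log2 intensity (y axis, own range per panel) of Wnt pathway genes on each array (points) with the group mean and SD (bar, n = 3), and the filter level (dashed line), for MGE E18.5, MGE E14.5, CGE E18.5 and CGE E16.5 from left to right. Tcf7l2 lies at 9.20 to 9.97 in MGE cells at E18.5 and at or below 5.80 elsewhere, and Wnt5a at or below 7.71 in MGE cells and at or above 10.06 in CGE cells.

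In the nucleus, Tcf7l2 was above the filter level only in MGE cells at E18.5. It encodes the TCF factor through which beta-catenin acts in many tissues, and in the brain it marks thalamic neurons and oligodendrocyte precursors on their way to differentiation. On the log2 scale it had levels of 9.71, 9.20 and 9.97 in MGE cells at E18.5 and 5.42, 5.80 and 5.19 in MGE cells at E14.5, against 5.05, 4.70 and 4.69 in CGE cells at E18.5 and 4.86, 5.19 and 4.71 in CGE cells at E16.5. The gene entered the test only through the group where it was high, and a gene that enters this way has to differ, so its p-values are given from the fit with no filter, over all 11358 genes. The mean of MGE cells at E18.5, 9.63, was at least 5.50-fold above the filter level, under which the other 9 arrays lay. The measured differences, which rest on dim values on one side, were 4.81 between MGE and CGE cells at E18.5 (adjusted p = 5.09e-08 with no filter) and 4.16 between MGE cells at E18.5 and at E14.5 (adjusted p = 2.24e-07), with a change of the lineage difference of 4.26 (adjusted p = 7.19e-06). In the other groups the differences were between dim values, -0.11 in CGE cells over time (adjusted p = 0.814) and 0.55 in the early comparison (adjusted p = 0.171). Another probe set gave 3.89 at E18.5 and 3.44 in MGE cells over time. The last, below the filter level on every array, gave 0.61 and 0.63.

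Oligodendrocyte precursor markers were high on the same arrays. Pdgfra, their growth factor receptor, had 12.52, 12.25 and 12.70 in MGE cells at E18.5 and 8.03, 8.43 and 7.42 in MGE cells at E14.5, against 5.08, 6.59 and 6.33 in CGE cells at E18.5 and 6.44, 5.07 and 4.83 in CGE cells at E16.5. Sox10, the factor that defines the lineage, had 10.68, 10.40 and 11.31 in MGE cells at E18.5 and 5.87, 6.19 and 6.56 in MGE cells at E14.5, against at most 4.83 on any CGE array. The arrays high in Tcf7l2 were thus the arrays high in these markers, and Lrp6 and Sfrp2 were also highest there. The part of these markers in the Tcf7l2, Lrp6 and Sfrp2 values was not tested. The other DNA-binding member measured, Tcf7l1, which mostly represses, was too dim for testing at 4.36 to 5.68.

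**Figure D3:**
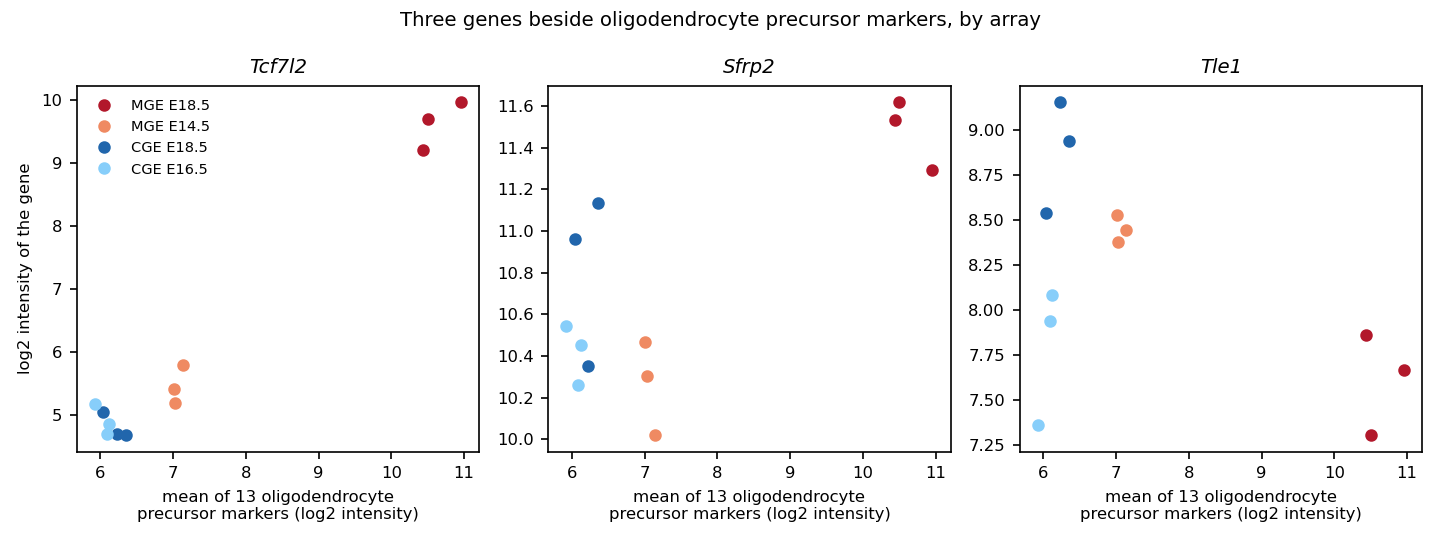
Log2 intensity of Tcf7l2, Sfrp2 and Tle1 (y axis, 1 gene a panel) against the mean log2 intensity of 13 oligodendrocyte precursor markers (x axis), 1 point an array, coloured by group. The 3 MGE arrays at E18.5 lie alone at a marker mean of 10.44 to 10.96, and the Tcf7l2 values of those 3 arrays are 9.20 to 9.97.

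Among the Groucho co-repressors, which sit on TCF factors when beta-catenin is absent, Tle1 moved in opposite directions in the 2 lineages. Its log2 levels were 7.30, 7.86 and 7.67 in MGE cells at E18.5 and 8.53, 8.45 and 8.38 in MGE cells at E14.5, against 8.54, 9.16 and 8.94 in CGE cells at E18.5 and 8.08, 7.36 and 7.94 in CGE cells at E16.5. All MGE arrays were lower at E18.5 than at E14.5, and all CGE arrays were higher at E18.5 than at E16.5. The change was -0.84 ± 0.21 in MGE cells (adjusted p = 0.0158) and 1.08 ± 0.21 in CGE cells (adjusted p = 0.0104). At E18.5 MGE cells were 2.41-fold lower than CGE cells, a difference of -1.27 ± 0.21 (adjusted p = 0.00114), while in the early comparison it was 0.66 ± 0.21 (adjusted p = 0.0806). The change of the lineage difference was -1.92 ± 0.30 (adjusted p = 0.00175), where 1.87% of all genes were called lower and 1 member was. The second probe set gave the same direction in CGE cells (1.55) and at E18.5 (-1.04), but only -0.16 in MGE cells over time (adjusted p = 0.641), and the call in MGE cells was also lost without MGE E18.5 replicate 1 (0.0682) or MGE E14.5 replicate 1 (0.058). The GABAergic interneuron markers were lower on the same MGE arrays at E18.5, and their part in the lower levels of Tle1, Fzd1, Apc2 and Wnt7a there was not tested.

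The other Groucho genes passed the test in no comparison. Tle3 had group means of 10.08 in MGE cells at E18.5 and 10.29 in MGE cells at E14.5, against 10.50 in CGE cells at E18.5 and 10.55 in CGE cells at E16.5, and its difference of -0.42 ± 0.16 at E18.5 did not pass the test (adjusted p = 0.0755). Tle2 and Tle5, a short family member that lacks the repeats with which the others bind partners, had differences over time between -0.42 and -0.18 in both lineages. Tle4 varied most between replicates: it had 9.55, 9.20 and 9.64 in MGE cells at E18.5 and 8.96, 9.15 and 8.85 in MGE cells at E14.5, against 10.38, 8.86 and 7.60 in CGE cells at E18.5 and 9.63, 8.49 and 7.73 in CGE cells at E16.5. The CGE arrays spanned the MGE values on both sides, and the difference at E18.5 was 0.51 ± 0.59 with a 95% interval of -0.77 to 1.80. Tle6 lay between 6.35 and 7.07, below the level tested.

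With no filter on dim genes, all 40 members entered the test among 11358 genes. Members that had not been tested before then passed it in a few places, all at levels where the arrays measure little. Nkd1 was lower in early MGE than early CGE cells (-0.54). Dkk1 (-0.45) and Wnt5b were lower, and Fzd5 (0.70) and Fzd9 (0.40) higher, in MGE than in CGE cells at E18.5. Fzd5 (0.72), Fzd9 (0.51) and Nkd1 (0.61) were higher in MGE cells at E18.5 than at E14.5, and Tcf7l1 was lower in CGE cells at E18.5 than at E16.5 (-0.80).

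Another 100 gene names of the pathway, which the rule did not take, were described in the same way, and 72 were tested. In the early comparison 6 were higher and 6 lower in MGE cells (16.7%, against 10.0% of all genes), and at E18.5 9 were higher and 9 lower (25.0%, against 22.8%). In MGE cells 9 were higher and 5 lower at E18.5 than at E14.5 (19.4%, against 21.2%), and in CGE cells 3 were higher and 8 lower at E18.5 than at E16.5 (15.3%, against 10.8%). The shares at E18.5 and in MGE cells over time were near those of all genes. Those in the early comparison, at E18.5 and in CGE cells include Jag1, which entered the test through CGE arrays only. The early share also includes Prickle1, which entered mainly through CGE arrays at E16.5.

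Wls, the carrier that brings Wnt proteins to the cell surface, had 7.85, 7.69 and 7.71 in MGE cells at E18.5, against 9.14, 9.37 and 9.38 in MGE cells at E14.5. The ages did not overlap, and the difference was -1.55 ± 0.21 (adjusted p = 0.000316). In CGE cells it was -0.61 ± 0.21 (adjusted p = 0.0914). Apcdd1, a membrane inhibitor that binds Wnts and Lrp5, was lower in MGE cells at both ages, with differences of -2.52 ± 0.28 in the early comparison (adjusted p = 0.000132) and -1.21 ± 0.28 at E18.5 (adjusted p = 0.00941). Its levels were 8.90, 9.24 and 9.47 in MGE cells at E18.5 and 7.66, 7.79 and 7.23 in MGE cells at E14.5, against 9.71, 10.76 and 10.76 in CGE cells at E18.5 and 10.09, 10.40 and 9.76 in CGE cells at E16.5. No MGE array reached the lowest CGE array. In MGE cells Apcdd1 was higher at E18.5 than at E14.5 by 1.64 ± 0.28 (adjusted p = 0.0017).

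Prkca, a calcium-dependent kinase of the branch that Wnt5a can engage, crossed over between the lineages. It had 9.01, 9.03 and 8.91 in MGE cells at E18.5 and 7.81, 7.74 and 7.40 in MGE cells at E14.5, against 7.31, 7.70 and 8.39 in CGE cells at E18.5 and 9.01, 8.80 and 9.37 in CGE cells at E16.5. MGE arrays were thus the higher ones at E18.5 and the lower ones in the early comparison, without overlap. It was higher at E18.5 in MGE cells by 1.33 ± 0.24 (adjusted p = 0.00221) and lower at E18.5 in CGE cells, at -1.26 ± 0.24 (adjusted p = 0.00938). The change of the lineage difference was 2.59 ± 0.34 (adjusted p = 0.00049). Of the planar polarity genes, Prickle2 was higher in MGE cells at both ages, by 1.35 ± 0.23 early (adjusted p = 0.00257) and 1.56 ± 0.23 at E18.5 (adjusted p = 0.000431). Prickle1 was lower in MGE cells in the early comparison, at -1.31 ± 0.22, and differed by 0.06 ± 0.22 at E18.5 (adjusted p = 0.882). These are dim values. It had 6.33, 5.92 and 6.21 in MGE cells at E14.5, under the filter level, against 7.06, 7.51 and 7.82 in CGE cells at E16.5. At E18.5 no array exceeded 7.11. Prickle1 thus entered the test mainly through CGE arrays at E16.5, where it was high, so no p-value is given for its early difference. Plcb1, a phospholipase of the calcium branch, was higher in early MGE than early CGE cells by 1.18 ± 0.24 (adjusted p = 0.00847), with another probe set that did not pass the test (adjusted p = 0.11). Its CGE arrays at E16.5, at 6.58 to 6.60, lay under the filter level, so the size rests on dim values on that side.

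**Figure D4:**
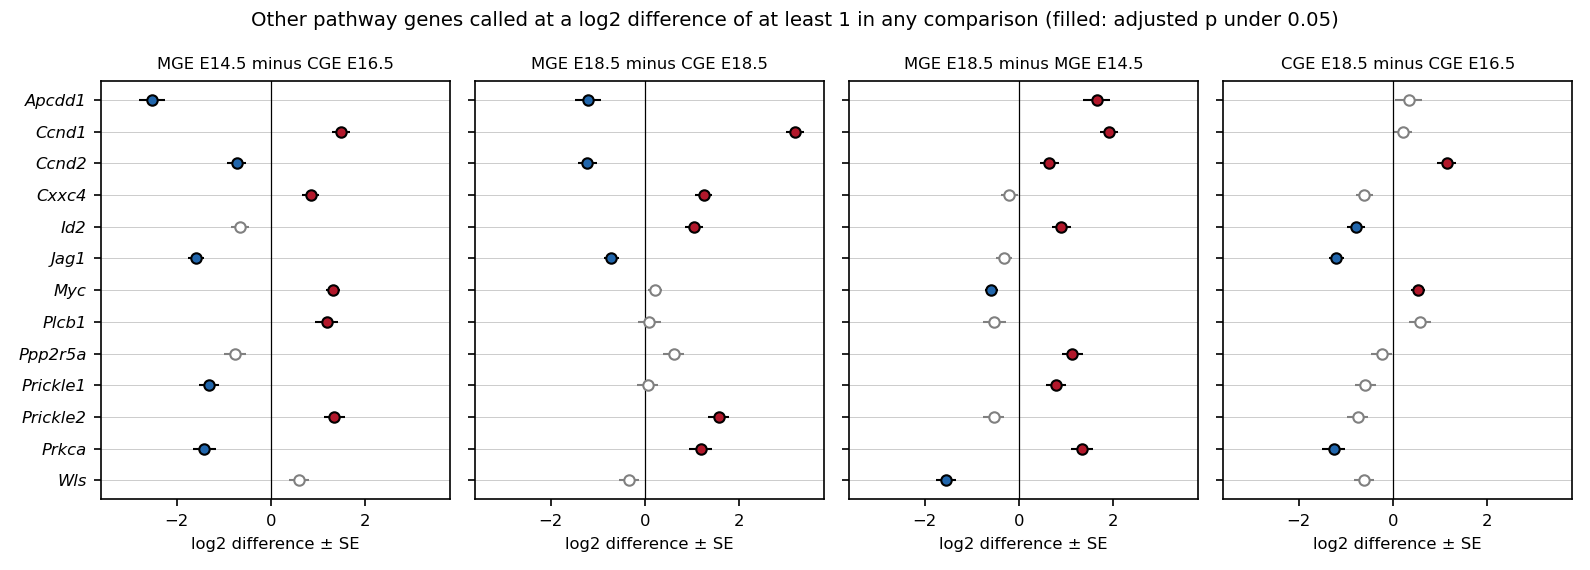
Log2 difference ± SE (x axis) of the 13 other Wnt pathway genes that were called at a size of at least 1 in a comparison, with filled points for an adjusted p under 0.05. Ccnd1 reaches 3.17 at E18.5, and Prkca changes sign between the early comparison (-1.41) and E18.5 (1.18).

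Of 8 tested genes known as targets of beta-catenin in other tissues, 2 were higher and 2 lower in MGE cells in the early comparison, where 4.15% and 5.88% of all genes were, and 2 were higher and 3 lower at E18.5, where 13.0% and 9.81% were. Ccnd1, the cyclin that takes cells into division, had 10.84, 10.50 and 11.13 in MGE cells at E18.5 and 8.79, 8.85 and 9.12 in MGE cells at E14.5, against 7.50, 7.45 and 8.00 in CGE cells at E18.5 and 7.62, 7.28 and 7.40 in CGE cells at E16.5. MGE cells were higher by 3.17 ± 0.19 at E18.5 (adjusted p = 2.95e-07) and by 1.48 ± 0.19 in the early comparison (adjusted p = 0.000365). Its relative Ccnd2 went the other way, lower in MGE than in CGE cells at E18.5, at -1.22 ± 0.20 (adjusted p = 0.00107) and higher in CGE cells at E18.5 than at E16.5 by 1.14 ± 0.20 (adjusted p = 0.00749). Its most variable probe set gave larger values, -3.38 and 2.63. Jag1, a Notch ligand, was lower in early MGE than early CGE cells, at -1.59 ± 0.17. All its MGE arrays, at 6.20 to 6.98, lay under the filter level. It entered the test through CGE arrays only, so no p-value is given between the lineages. Jag1 is among the lower genes counted above in both lineage comparisons. Myc was higher in early MGE than early CGE cells by 1.32 ± 0.14 (adjusted p = 0.000114). Id2, an inhibitor of helix-loop-helix factors, was higher in MGE than in CGE cells at E18.5 by 1.03 ± 0.20 (adjusted p = 0.00246). In CGE cells Jag1 was lower at E18.5 than at E16.5, at -1.20 ± 0.17 (adjusted p = 0.00293). Its CGE arrays at E18.5, at 7.07 to 7.43, were close to the filter level. Cxxc4, which binds Dishevelled and dampens the signal, was higher in MGE cells at E18.5 by 1.24 ± 0.18 (adjusted p = 4e-04), and the phosphatase subunit Ppp2r5a was higher in MGE cells at E18.5 than at E14.5 by 1.13 ± 0.23 (adjusted p = 0.00457). Cell-cycle genes, a list that holds Ccnd1, moved with age as well. Of 9 tested, 5 were higher at E18.5 in MGE cells and 7 in CGE cells. Ccnd1 was not among these 7, and its CGE arrays overlapped between the ages. Between the lineages at E18.5, 1 of the 9, Ccnd1 itself, was higher in MGE cells and 3 were lower (median difference -0.98). The arrays highest in Ccnd1 were those high in oligodendrocyte precursor markers. The part of either set of genes in the cyclin values was not tested.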

How the data were processed

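Values were the log2 intensities of 27094 Affymetrix Mouse430_2 probe sets on 12 arrays, 3 in each of 4 groups. Per the study's methods the authors background-corrected and normalised their array data with Bioconductor, and the submitters' processing notes name MAS5 with no version. Which routine made the deposited log2 values, and how the probe sets were chosen, is not stated in these sources. The table holds none of the authors' own fold changes. Array medians were 7.75 to 7.81. Probe sets were named through GEO's platform annotation: 22339 had a single symbol, 571 several and 4150 none, and 34 controls were left out. Each gene was represented by its brightest probe set over the 12 arrays and tested if above its array's 40th percentile (7.10 to 7.17) on at least 3 arrays. limma 3.58.1 in R 4.3.3 fitted 1 mean per group over all 12 arrays (8 residual degrees of freedom and 3.60 from the prior). All tests were two-sided, with Benjamini-Hochberg adjustment over all genes tested in each comparison. Precision is limited by the number of arrays. The script was tested on simulated data.

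Differences are MGE minus CGE, or E18.5 minus the earlier day. A change of the lineage difference means the difference at E18.5 minus the early one. Members called in a comparison are named, with every array's value where the difference was at least 1 or the change of the lineage difference was called, together with the core genes whatever they did. Genes outside the membership rule are named if called at a difference of at least 1. The members and lists were chosen with earlier results of these data known. Promoter sequences were from RefSeq (GRCm38.p6). Alternatives changed the filter, the choice of probe set, the normalisation, the moderation, the array weights, a replicate block and the arrays included.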

Additional observations from a re-analysis of the deposited data

Results flagged for a closer look

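The lineage difference changed between the early comparison and E18.5 for 4 of 27 tested Wnt pathway members (14.8%). The test was of that change itself (limma, adjusted p under 0.05). Of the 72 tested other pathway genes, 7 had a higher and 3 a lower change (13.9%), where 8.56% of all genes were called. Given below are, in either direction, the 7 that were also called at a difference of at least 1 in a comparison. Groups of 3 arrays were not tested for outlying arrays. Among members the change was 4.26 for Tcf7l2, -1.92 for Tle1, 1.17 for Wnt5a and 0.65 for Lrp6, all on the log2 scale. Tcf7l2 was above the filter level on the MGE arrays at E18.5 only and so had to differ. Tle1 was called in opposite directions in MGE and CGE cells, but its second probe set gave only -0.16 in MGE cells. Wnt5a was called lower with age in CGE cells only, and its MGE levels were close to the filter level, where a fall is hard to measure. Among those 7 other pathway genes the change was 2.59 for Prkca, 1.69 for Ccnd1, 1.69 for Id2, 1.37 for Ppp2r5a, 1.37 for Prickle1, 0.88 for Jag1 and -1.11 for Myc. The calls of Lrp6 and Jag1 were lost in most alternatives, and that of Wnt5a in 8 of 22. Jag1 entered the test through CGE arrays only, and Prickle1 lay close to or under the filter level on most arrays. The early comparison sets E14.5 against E16.5, so a change of the difference covers unequal spans of days in the 2 lineages.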

How the results depend on the processing

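Of 33 calls of named members, 17 were kept under all alternatives that gave a value and 16 were lost under at least 1 of the 23. Both lineage calls of Wnt5a were kept, as was the call of Tle1 at E18.5. The 17 include 3 calls of Tcf7l2, which were fixed by how it entered the test and say nothing of stability. They also include Dkk3 in MGE cells over time, where the arrays at E14.5 lay under the filter level. The direction reversed in 1 case, Sfrp1 in CGE cells over time, at -0.132 with the most variable probe set. Of the other pathway genes, only the 13 called at a difference of at least 1 were followed in this way. Of their 39 calls, 26 were kept and 13 were lost under at least 1 alternative. Those lost include Myc and Id2 in CGE cells, Ccnd2 in early and MGE cells and the change of the lineage difference of Jag1. How the calls of the remaining other pathway genes held was not examined. The 26 include both lineage calls of Jag1, which entered the test through CGE arrays only, so these say nothing of stability. The same holds for the early call of Prickle1, which entered mainly through CGE arrays at E16.5.

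Counts of members moved by over 1.5 times as follows, and the causes were not tested beyond what each setting changes. With array weights, 1 member was higher in the early comparison (0 in the main setting), 7 were lower (4) in MGE cells over time, 1 was higher (3) in CGE cells over time and 2 had a lower change of the lineage difference (1). With the groups of a comparison fitted alone, 1 was higher early, 3 were higher at E18.5 (5), and 0 were higher (3) and 3 lower (5) in CGE cells over time. That setting gives no change of the lineage difference. With the close MGE arrays at E14.5 averaged, 2 were lower early (4), 1 was lower in MGE cells over time (4) and 1 had a higher change of the lineage difference (3), as 1 did with the most variable probe set. The counts over all genes moved under these settings too: with array weights 818 genes were higher early (365 in the main setting) and 1939 lower in MGE cells over time (858), with the groups fitted alone 74 were higher and 96 lower in CGE cells over time (393 and 558), and with the close arrays averaged 456 were lower in MGE cells over time (858). The moved counts are therefore no result about the members. The calls lost by averaging were Dkk3 and Fzd2 early, Fzd1, Lrp6, Tle1 and Apc2 in MGE cells, and the changes of Wnt5a and Lrp6 (adjusted p = 0.0524 to 0.129). With no filter, 7 of 40 members were higher in MGE cells over time (4 of 27), beside 1378 of 11358 genes (1002 of 8787). Leaving out 1 array at a time gave 2 to 4 lower early, 3 to 5 higher at E18.5, 1 to 4 lower in MGE cells, 1 to 3 higher in CGE cells, and 1 to 3 higher and 1 to 2 lower changes of the lineage difference. The low ends came without MGE E14.5 replicate 1 or 3 (early), MGE E18.5 replicate 1 (E18.5), MGE E18.5 replicate 1 or MGE E14.5 replicate 1 (MGE cells), CGE E18.5 replicate 2 or CGE E16.5 replicate 1 or 3 (CGE cells), and MGE E18.5 replicate 1 or 2, MGE E14.5 replicate 1 or 2 or CGE E16.5 replicate 2 or 3 (higher change of the lineage difference). The high end of lower changes came without CGE E16.5 replicate 1. The counts over all genes moved in these fits as well. Without MGE E14.5 replicate 1, 316 genes were lower early (517) and 460 lower in MGE cells over time (858). Without MGE E18.5 replicate 1, 910 were higher at E18.5 (1138), and without CGE E18.5 replicate 2, 188 were higher in CGE cells over time (393). These ranges are thus no result about the members either.

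The sources used here name no pairing of arrays by replicate number. Deviations of same-numbered arrays from their group means correlated at -0.104 to 0.247. Arrays with different numbers were not compared in this way, so these values alone do not show whether the numbers pair the arrays. With the number as a replicate block, 3 members were higher in MGE cells over time (4) and 2 had a higher change of the lineage difference (3), the call lost in each being that of Lrp6, and the other 8 counts did not move. Values were already log2, so a pseudocount alternative did not apply. The MGE arrays 1 and 2 at E14.5 were the closest pair (SD of differences 0.231, against 0.376 to 0.518 for other pairs) and were kept as separate samples. Array brightness limits the 13 dim members, for which a level near the floor cannot be told from none.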
